A study of Mus musculus with 11 samples.

Results

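CD4 T cells of the mouse kidney were examined by single-cell RNA sequencing (scRNA-seq) in control kidneys and in kidneys with advanced fibrosis. They were chosen by the transcripts counted in each cell barcode, as unique molecular identifiers (UMIs, 1 per captured transcript). A barcode was kept with at least 500 UMIs, at least 200 genes and at most 30% mitochondrial UMIs. It was taken as a CD4 T cell when *Cd4* and at least 1 of *Cd3e*, *Cd3d* and *Cd3g* were detected, *Cd8a*, *Cd8b1*, *Cd79b* and *Epcam* were all at 0, and fewer than 2 of the macrophage genes *C1qa*, *C1qb* and *C1qc* were detected. This gave 914 CD4 T cells of 45454 kept barcodes in 11 libraries, 17 of 11914 in the control, 505 of 18486 in UIR and 392 of 15054 in UUO. The levels of these 11 genes are therefore no result.

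All mice were male C57Bl/6, and each library is taken as 1 mouse. The injured mice were 10 weeks old at the procedure, and the controls are described as of the same age. In unilateral ischemia-reperfusion (UIR, 3 libraries) the left renal pedicle was clamped for 30 minutes, and in unilateral ureteral obstruction (UUO, 3 libraries) the left ureter was tied for good. Kidneys were taken 28 days after either procedure, and 5 naive mice without surgery served as control. No cells were sorted, so lymphocytes inside kidney vessels and those in the tissue were counted together. Libraries are numbered here within each group as control 1 to 5, UIR 1 to 3 and UUO 1 to 3.

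CD4 T cells are the helper arm of adaptive immunity. Their T cell receptor reads peptides held by MHC class II molecules on dendritic cells, macrophages and B cells, and after activation they take on programs that are named after their master regulators and cytokines: Th1 cells (*Tbx21*, interferon gamma), Th2 cells (*Gata3*, interleukins 4, 5 and 13), Th17 cells (interleukin 17), follicular helper cells (*Bcl6*, *Cxcr5*) and regulatory T cells (Tregs, *Foxp3*), which restrain the others. In the injured kidney, helper cells are known to gather around tubules and to act on macrophages and fibroblasts, and Tregs are known to limit inflammation.

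The members carried the T cell receptor genes that the gate did not use. At least 1 of *Trac*, *Trbc1* and *Trbc2*, the constant parts of the receptor chains, was detected in 901 of the 914 cells (98.6%), and *Trbc2* in 857 (93.8%). In the pooled CD4 T cells of each library, *Trbc2* (chromosome 6, 41546730 to 41548352, GRCm38) stood at 1902, 1274 and 1365 CPM (UMIs of a gene per 1000000 UMIs of the pool) in UIR 1 to 3 and at 2091, 1401 and 1402 in UUO 1 to 3, against a mean of 258 in the droplets of 10 to 100 UMIs of the same libraries, which hold free RNA. The 17 control cells together had 2240 CPM. *Trbc1* and *Trbc2* are near-identical copies, so the division of reads between them is uncertain.

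A cell had a median of 4355.5 UMIs (range 515 to 46895) and 1724 genes, with a median of 5533 UMIs in control, 4112 in UIR and 4829.5 in UUO. The mitochondrial share had a median of 11% in control, 7.83% in UIR and 5.30% in UUO, and the highest member stood at 29.99%. *Cd4* was seen as a single UMI in 558 cells (61.1%), so that helper cells without a captured *Cd4* transcript are missing, and 1607 further CD3-detected cells had neither *Cd4* nor *Cd8a* nor *Cd8b1*. Of barcodes that met every other limit, 10 to 29 per injured library were left out only for *Epcam*, 1 to 17 only for the *C1q* genes, 3 to 13 only for a CD8 gene and 3 to 13 only for the lack of a CD3 gene. No barcode sequence was a CD4 T cell in more than 1 library, and 9 were also kept in another library, among 266 of 45186 different kept barcodes that occurred more than once. The 26 members (2.85%) among the 7.5% of barcodes with the highest doublet scores were kept.

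Genes of other cell types differed widely in level between lists and libraries. The 10 macrophage and monocyte genes summed to 342 to 533 CPM in UIR, 474 to 593 in UUO and 199 in the control cells, against 3108 and 7501 in the droplets of UIR and UUO. The 13 genes of CD8 T, NK, innate lymphoid and gamma delta T cells, which also hold the Th2 genes *Gata3* and *Il1rl1*, summed to 209 to 214 CPM in UIR, 158 to 212 in UUO and 99.3 in the control cells, and the 9 dendritic cell genes to 382 to 424, 490 to 2655 and 33.1. Of these, *Ncr1*, *Klre1* and *Klra8* of NK cells, *Trdv4* of gamma delta T cells, and *Flt3* and *Siglech* of dendritic cells were at 0 in all 6 injured libraries. Among the 897 injured cells the gamma delta genes *Tcrg-C1*, *Trgv2*, *Tcrg-C2* and *Trdc* were detected in 14, 7, 6 and 3, *Klrb1c* of NK cells in 5, and *Xcr1*, *Cd209a* and *Clec9a* of dendritic cells in 10, 5 and 3. At least 2 of *Lyz2*, *Csf1r*, *Cd68*, *Fcgr1* and *Cd74* were detected in 66 UIR cells (13.1%) and 87 UUO cells (22.2%). Single barcodes held much of some genes. In UUO 1, 1 cell held 894 of 1218 *Cd74* UMIs (73.4%) and 276 of 320 *H2-Eb1* UMIs, both of which serve MHC class II presentation, and 1 cell held all 53 *Ccl4* UMIs. One cell of UUO 3 held 3666 of its 3669 *Hbb-bs* (hemoglobin) UMIs, and 1 cell of UIR 1 held 2434 of 2664 *Kap* (proximal tubule) UMIs. The 8 proximal tubule genes summed to 778 to 7989 CPM in UIR and 53.9 to 1626 in UUO, with overlap between the models and 477 of 511 *Kap* UMIs of UUO 1 in 1 cell. The part of tubular RNA in the results was not tested.

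CD4 T cells were scarce in every control kidney and made up a larger share of the barcodes in every injured one. They were 0.114%, 0.0498%, 0.094%, 0.331% and 0.141% of the kept barcodes of control 1 to 5, which is 1 to 7 cells per library. In UIR 1 to 3 they were 2.21%, 2.08% and 4.0%, and in UUO 1 to 3 they were 2.94%, 2.49% and 2.37%. Every injured library lay above every control library. The mean was 0.146% ± 0.109 (SD, n = 5) in control, 2.76% ± 1.07 (n = 3) in UIR and 2.60% ± 0.303 (n = 3) in UUO, a ratio of 19.0 and 17.85. The two-sided exact permutation test gave p = 0.0357 for each model, the smallest p that 5 against 3 libraries allow. The adjusted p of this test over 10 share tests was 0.0893, so that neither difference passed the threshold of 0.05 after adjustment. With these numbers of libraries no share test could pass that threshold, so the miss decides nothing. Among barcodes of at least 500 UMIs, those over 30% mitochondrial UMIs numbered 12332 to 45657 per control library. They numbered 10009 to 24436 in UIR and 1032 to 1944 in UUO. These counts include barcodes that also had fewer than 200 genes. Below 200 genes were 5572 to 37626 per control library, 6184 to 16596 in UIR and 704 to 1508 in UUO. With a mitochondrial limit of 15% or 50% the groups still did not overlap. UUO and UIR overlapped (exact permutation p = 1, smallest possible 0.1).

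A share of all barcodes also moves with the loss of tubular cells, so CD4 T cells were set against leukocytes, taken as barcodes with a UMI of *Ptprc*, which encodes CD45. They made up 3.28%, 0.699%, 2.04%, 5.19% and 1.94% of these in control 1 to 5, 8.34%, 6.61% and 10.6% in UIR 1 to 3, and 7.35%, 6.52% and 5.41% in UUO 1 to 3. The groups did not overlap, but UUO 3 and control 4 lay close together. The means were 2.63% ± 1.70 (n = 5), 8.53% ± 2.01 (n = 3) and 6.43% ± 0.976 (n = 3), with exact permutation p = 0.0357 and adjusted p = 0.0893 for each model. With a mitochondrial limit of 15%, or with the stricter gate that also asks for a receptor constant gene and for fewer than 2 of the 5 myeloid genes, UUO and control overlapped (exact permutation p = 0.107 for each). UUO was lower than UIR by 2.10 percentage points, within the spread of the libraries (exact permutation p = 0.2, adjusted p = 0.333). With 1 library left out, UUO minus UIR ran from -3.055 to -1.053 points.

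The balance of CD4 and CD8 T cells did not separate the groups. CD8 T cells passed the same gate with *Cd8a* or *Cd8b1* in place of *Cd4*, and there were 1048 of them. CD4 T cells were 36.2% ± 14.3 (n = 5) of both kinds in control, 49.6% ± 3.61 (n = 3) in UIR and 44.4% ± 10.6 (n = 3) in UUO (exact permutation p = 0.179 for UIR and 0.464 for UUO against control, and 0.7 between the models; adjusted p = 0.333, 0.663 and 0.778). UUO 3 was the lowest injured library, with 32.8%, and UUO 2 the highest, with 53.5%. In control 1 to 5 the share rested on 6 to 13 cells per library.

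**Figure D1:**
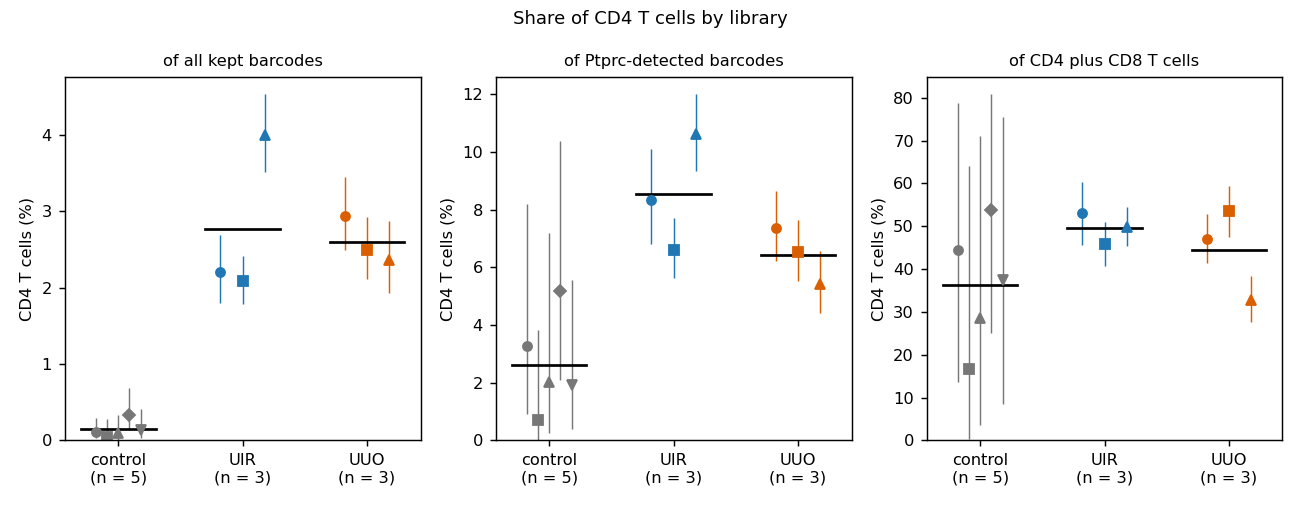
Share of CD4 T cells in each library, in percent of all kept barcodes (left), of barcodes with a *Ptprc* UMI (middle) and of CD4 plus CD8 T cells (right). Points are libraries with exact 95% binomial intervals, which cover counting error only, and lines are group means; the 6 injured libraries sit above the 5 control libraries in the left and middle panels, and the groups overlap in the right panel.

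*Cxcr6*, *Cxcr3* and *Ltb* stood well above the droplets in the pooled CD4 T cells of every injured library. Levels below are CPM over all CD4 T cells of a library (98 to 239 cells and 476779 to 1171588 UMIs per injured library), and the 17 control cells are given as 1 sum of 90628 UMIs with an exact 95% Poisson interval, which covers counting error only. *Cxcr6*, a chemokine receptor that keeps T cells in tissue, stood at 357, 427 and 466 CPM in UIR 1 to 3 and at 304, 504 and 351 in UUO 1 to 3, against 320.0 (interval 214 to 459.6) in the control sum and 23.8 in the droplets. *Cxcr3*, a receptor for interferon-induced chemokines, stood at 340, 231 and 264 in UIR and 328, 279 and 246 in UUO, against 188 (109 to 300.3) in the control sum and 17.1 in the droplets. *Ltb*, the lymphotoxin that shapes lymphoid tissue, was even across the libraries, with 1349 to 1697 CPM (median 1564) and 1070 in the control sum. The libraries of both models overlapped for each of these genes. The 12 genes of memory, activation and residency summed to 4333 to 4911 CPM in UIR, 4959 to 6275 in UUO and 5175 in the control sum, so that the control cells lay within the range of the injured libraries. Of the integrins on that list, *Itgae* was detected in 5.02% of the 897 injured cells and *Itga1* in 11.15%.

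Genes of naive and recirculating T cells differed in level. *Tcf7* and *Lef1*, transcription factor genes of naive and memory cells, were detected in 35.9% and 27.0% of the injured cells, with 102 to 188 and 66.4 to 99.5 CPM, against 199 and 154.5 in the control sum. *Klf2*, a factor of recirculating cells, had 49.0 to 227 CPM against 353, with 241 in the droplets. *Ccr7*, the receptor that guides T cells to lymph nodes, was at 10.5, 3.16 and 2.56 CPM in UIR 1 to 3 and 21.9, 34.4 and 35.8 in UUO 1 to 3, with 55.2 in the control sum and 26.6 in the droplets. *Satb1*, a chromatin organizer of naive T cells, had 17.4 to 37.6 CPM in UIR and 24.9 to 99.5 in UUO. It had 276 (interval 179 to 407) in the control sum, 95.65 in the UIR droplets and 11.9 in the UUO droplets. By library it had 42.5, 503, 0, 461 and 205 CPM in control 1 to 5. The control sum of *Satb1* thus rested on libraries that differed widely, and its interval does not cover that spread. *Il7r*, the survival receptor shared by naive and memory cells, had 277, 404 and 407 in UIR and 319, 562 and 477 in UUO.

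Treg genes were seen in all 6 injured libraries. *Foxp3* (chromosome X, 7573644 to 7595245) had 83.9, 106 and 53.8 CPM in UIR 1 to 3 and 87.7, 36.7 and 114 in UUO 1 to 3, against 5.25 in the droplets and no UMI in the 17 control cells. *Ikzf2*, which encodes the Treg factor Helios, had 338, 460 and 248 in UIR and 528, 190 and 508 in UUO, so that UUO 2 was the lowest UUO library for both genes. *Tnfrsf4*, which encodes the costimulatory receptor OX40, ranged from 165 in UUO 2 to 461 in UUO 1. Of the 16 Treg genes *Il10* was counted in a single cell, with 9 UMIs in UIR 1.

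Cytotoxic effector genes were present only in part. *Ccl5*, a chemokine of effector T cells, had 1034 to 1487 CPM (median 1215) in the injured libraries, and *Nkg7*, a granule protein, 381 to 589 (median 485). *Gzma* and *Prf1*, the granzyme and the pore protein of killer cells, were at most at 3.44 and 2.56 CPM. Interferon-induced genes varied between libraries of 1 model. *Isg15* stood at 65.0, 199 and 192 in UIR 1 to 3 and at 81.9, 386 and 96.4 in UUO 1 to 3, and *Ifit1* and *Ifit3* were likewise highest in UUO 2. The 12 interferon genes summed to 3840 to 4897 CPM in UIR, 3899 to 5808 in UUO and 2924 in the control sum.

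**Figure D2:**
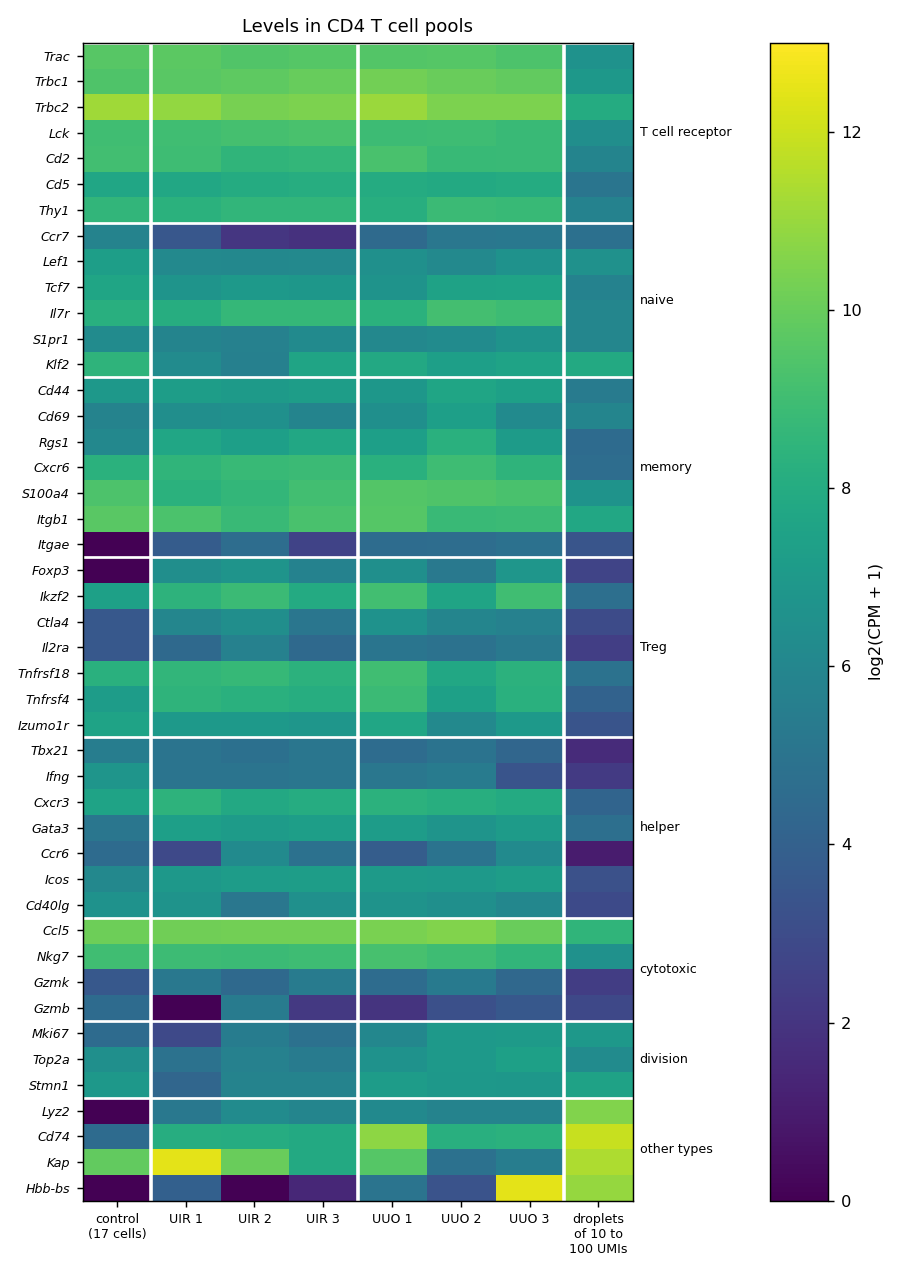
Levels of 45 listed genes in the pooled CD4 T cells of each injured library, in the 17 control cells summed, and in the injured libraries' droplets of 10 to 100 UMIs, as log2(CPM + 1) on the color scale. Receptor, *Cxcr6* and *Ccl5* rows are brighter in every CD4 T cell column than in the droplets, while *Lyz2*, *Cd74*, *Kap* and *Hbb-bs* are bright in the droplets; among the CD4 T cell columns *Hbb-bs* is bright only in the pool of UUO 3 and *Kap* brightest in that of UIR 1.

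CD4 T cells were then counted by detection of genes of the helper programs. These gates are ranges of detection and not cell types, a cell may fall into several, and a gate can miss cells whose transcripts were not captured. For each gate, the share among 10159 macrophage-gated barcodes of the injured libraries (at least 2 *C1q* genes and no CD3 gene) is given beside it, which holds free RNA and any transcripts of those cells' own. Those barcodes were shallower, with library medians of 1180 to 1995 UMIs against 3505 to 5621 for CD4 T cells. The follicular-type and division gates lay near that share and the others well above it.

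The Th1-type gate (*Tbx21*, *Cxcr3* or *Ifng*) was the most frequent, with 71.4%, 52.4% and 69.9% of the CD4 T cells in UIR 1 to 3 and 66.2%, 69.4% and 55.0% in UUO 1 to 3, against 2.97% and 3.87% of macrophage-gated barcodes. It held 12 of the 17 control cells. *Ifng* was detected in 93 of the 897 injured cells, against 578 in this gate. Most injured cells thus entered it through *Cxcr3* or *Tbx21* and not through the cytokine gene. The cytotoxic gate (at least 2 of *Gzma*, *Gzmb*, *Gzmk*, *Prf1*, *Nkg7* and *Ccl5*) held 46.9%, 36.3% and 52.3% in UIR and 42.1%, 49.0% and 32.0% in UUO, against 0.308% and 0.535%, and 8 of the 17 control cells. *Gzmb* was detected in 15 of the 897 injured cells, and *Gzma* and *Prf1* were barely counted. Most cells thus entered this gate through *Nkg7*, *Ccl5* and *Gzmk*. The Foxp3 gate held 16 of 98, 24 of 168 and 23 of 239 cells in UIR 1 to 3 (16.3%, 14.3% and 9.62%) and 31 of 145, 13 of 147 and 19 of 100 in UUO 1 to 3 (21.4%, 8.84% and 19.0%). Among macrophage-gated barcodes of the injured libraries *Foxp3* was detected in 0.0886%. None of the 17 control cells held it, which by a floor of 3 counts allows a share of up to 17.65% (exact 95% binomial upper limit 19.5%) and so does not separate control from injured kidneys at this depth.

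The mean Foxp3 share was 13.4% ± 3.44 (SD, n = 3) in UIR and 16.4% ± 6.66 (n = 3) in UUO, and the libraries overlapped (exact permutation p = 0.6, adjusted p = 0.75 over the 10 share tests). With every cell thinned to 1000 UMIs, which left 191 UIR, 125 UUO and 4 control cells, the order of the means turned to 12.4% and 5.90%. The Th2-type gate (*Gata3* with *Il4*, *Il5*, *Il13* or *Il1rl1*) held 12.2%, 4.76% and 5.44% in UIR and 6.21%, 4.76% and 2.0% in UUO, against 0.088% and 0.143% of macrophage-gated barcodes. The follicular-type gate (*Cxcr5*, *Bcl6* or *Il21*) held 3.81% ± 2.91 in UIR and 5.97% ± 2.83 in UUO (n = 3 each) against 6.51% and 7.25%. Of its genes, *Bcl6* was detected in 2.45% of the injured CD4 T cells and 6.84% of macrophage-gated barcodes, *Cxcr5* in 1.45% and 0.0886%, and *Il21* in 0.669% and 0.0197%.

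Cells with at least 2 of the division genes *Mki67*, *Top2a*, *Birc5*, *Cdk1*, *Ccnb2* and *Pclaf* were 1.02%, 1.79% and 3.77% in UIR and 5.52%, 6.12% and 7.0% in UUO with no overlap between the models (exact permutation p = 0.1, the smallest that 3 against 3 libraries allow, and adjusted p = 0.4 over the 8 gates computed), against 3.41% and 3.62% of macrophage-gated barcodes. In the stricter gate the difference fell from 4.02 to 2.44 percentage points and the models overlapped (exact permutation p = 0.2). These 37 cells had a median of 8639 UMIs, and at 1000 UMIs per cell 0 of 191 and 1 of 125 remained in the gate. Of the other gates reported here, the models overlapped for the Th1-type, Th2-type, follicular-type, Foxp3 and cytotoxic ones.

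**Figure D3:**
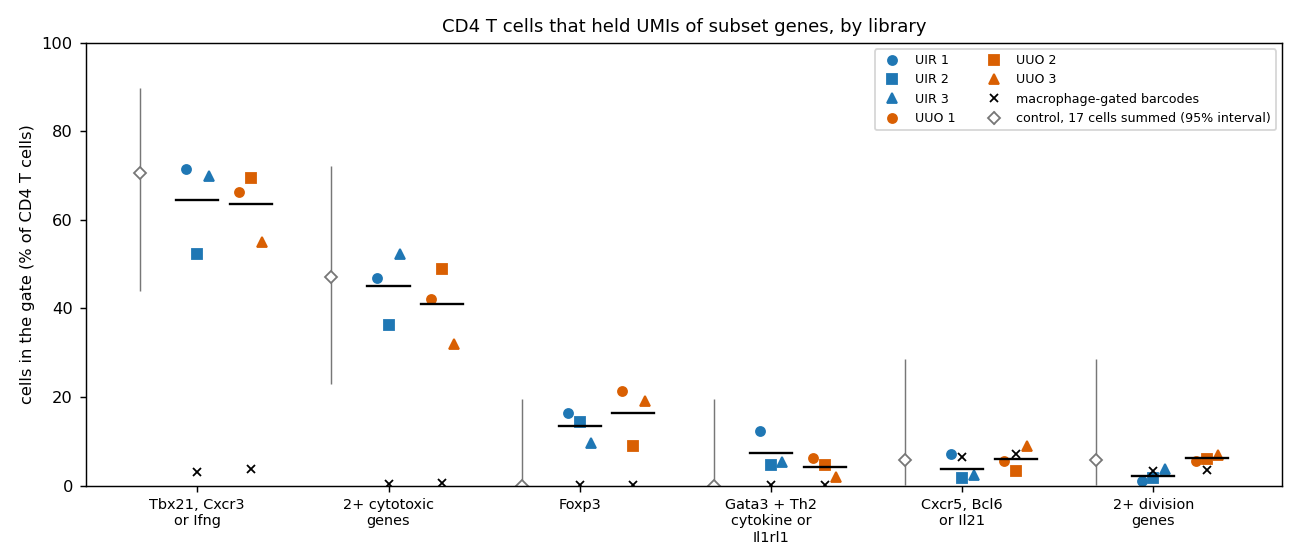
Percent of CD4 T cells in each of 6 gates on UMIs of the genes named on the x axis, for UIR (blue) and UUO (orange) libraries with the group mean as a line, for the 17 control cells summed (open diamonds, exact 95% binomial interval) and for macrophage-gated barcodes of each model (crosses). The UUO points lie above the UIR points in the gate of division genes; the follicular-type and division gates lie near the crosses.

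The gates met in the same cells in an uneven way. Among the 126 Foxp3-detected cells 28 (22.2%) were also Th2-type, against 2.98% of the other 771 cells, so that these 28 made up 54.9% of all 51 Th2-type cells. This gate includes *Il1rl1*, which encodes the IL-33 receptor ST2, known from tissue Tregs. *Il1rl1* was detected in 63 injured cells, against 5, 2 and 1 for *Il4*, *Il5* and *Il13*. Most Th2-type cells thus entered the gate through *Il1rl1* and not through a cytokine gene. Conversely 37.3% of Foxp3-detected cells were Th1-type against 68.9% of the others, and 7.14% against 50.3% were in the cytotoxic gate. Each of these 3 differences had the same sign in 6 of 6 injured libraries. Foxp3-detected and other cells had pooled medians of 4352.5 and 4349 UMIs, with library medians of 3220 to 5805 and 3515 to 5613. Of the 578 Th1-type cells, 320 (55.4%) were also in the cytotoxic gate, against 24.1% of the cells outside it, in the same direction in 6 of 6 libraries.

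Helper cytokines were rarely captured. *Ifng*, the Th1 cytokine, was detected in 93 of the 897 injured cells (10.4%; 6.0% to 12.2% by library) and in 6 of the 17 control cells, against 0.0689% of macrophage-gated barcodes. *Tnf* was detected in 61 (6.8%) and 5 of 17. *Il4* was detected in 5 injured cells, *Il5* in 2, *Il13* in 1, *Il17a* in 2, *Il17f* in 3, *Il21* in 6 and *Csf2* in 1, and *Il22* in 0 of 897. *Areg*, a growth factor that Tregs and Th2 cells can release in tissue repair, had 47 UMIs in 17 cells, of which single cells of UIR 1 and UUO 1 held 14 each. *Xcl1*, a chemokine for cross-presenting dendritic cells, was detected in 210 cells (23.4%), and *Cd40lg*, the ligand through which helper cells license B cells and dendritic cells, in 266 (29.7%), against 0.00984% of macrophage-gated barcodes.

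Foxp3-detected cells carried other Treg genes at higher levels. The 126 Foxp3-detected cells (13 to 31 per injured library, 649859 UMIs) were summed per library and set against the other CD4 T cells of the same library (3831049 UMIs) with the library as a block, by the quasi-likelihood test of edgeR and the Benjamini-Hochberg adjustment. *Foxp3* itself defined the pools and is no result. Of 3819 genes tested, 169 (4.43%) were higher and 138 (3.61%) lower in the Foxp3-detected cells at an adjusted p under 0.05, and 708 had an unadjusted p under 0.05. The median log2 fold change of all genes was -0.018.

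Of the other 15 Treg genes, 11 passed the filter on low counts, and these were called higher. Several had few UMIs in the other pools (40 of *Ikzf4*, 56 of *Il2ra*, 60 of *Klrg1* and 87 of *Ctla4*), so that a gene of this kind could pass the filter through the Foxp3-detected pools alone, and the counts of lists are a description. *Il10*, *Il1rl1*, *Areg* and *Lrrc32* did not pass it. *Ctla4* (chromosome 1, 60887000 to 60915832), the inhibitory receptor that takes up CD80 and CD86, had 130 to 400.0 CPM (median 307) in the Foxp3-detected pools of the 6 libraries and 8.53 to 46.2 (median 25.5) in the others, with no overlap (log2 fold change 3.59, SE 0.27, adjusted p = 8.6e-10 in edgeR). *Klrg1* (chromosome 6, 122270596 to 122282882), a receptor of terminally differentiated effector Tregs, had 117 to 371 CPM (median 282) against 2.01 to 41.2 (median 14.1; log2 fold change 3.96, SE 0.29). *Ikzf2* had 1345 to 1736 CPM (median 1613) against 59.9 to 308 (median 150; 3.33, SE 0.22), and the related factor *Ikzf4* was higher by 3.42 (SE 0.38). *Il2ra*, the high-affinity IL-2 receptor chain, had 77.6 to 186 CPM against 7.27 to 29.6 (3.1, SE 0.28). The TNF receptors *Tnfrsf9* (2.92, SE 0.33), *Tnfrsf4* (2.54, SE 0.18) and *Tnfrsf18* (1.71, SE 0.14), which encode 4-1BB, OX40 and GITR, were higher in 6 of 6 libraries each. *Izumo1r*, the folate receptor FR4, and the actin capping gene *Capg* rose by 1.54 and 1.78 on the log2 scale. *Nrp1*, a semaphorin coreceptor, was higher by 1.0, but in 4 of 6 libraries, and lost its call in 2 of 11 alternatives.

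Outside this list, the 10 genes with the largest increases also held *Itgae*, the integrin CD103 that binds epithelial E-cadherin (3.48, SE 0.41; 51.7 to 114 CPM against 0 to 14.0), the arrestin domain gene *Arrdc4* (2.95, SE 0.42) and *Fam46a* (2.44, SE 0.21). *Itgae* had 55 UMIs against 27 in the other pools, and *Arrdc4* 39 against 27. Both could thus pass the filter on low counts through the Foxp3-detected pools alone. Of 9 Th2 genes 3 passed the filter on low counts, and these were higher, namely *Gata3* (1.49, SE 0.17), the chemokine receptor gene *Ccr4* (1.80, SE 0.32) and *Maf* (0.57, SE 0.15). *Ccr4* had 43 UMIs against 75 and could likewise pass the filter through the Foxp3-detected pools alone. *Maf* lost its call in 6 of the 11 alternatives computed for it. Of 9 inhibitory and costimulatory receptor genes tested, 6 were higher, among them *Pdcd1* (PD-1; 1.76, SE 0.33), *Tox* (0.93, SE 0.20) and *Cd27* (0.70, SE 0.15), and *Cd28* was lower (-0.59, SE 0.15; lost in 4 of 11 alternatives). *Ramp1*, a coreceptor for the neuropeptide CGRP, rose by 1.93 (SE 0.18) in 6 of 6 libraries.

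The lower genes with the largest changes included chemokine, granule, integrin and transcription factor genes. *Xcl1* had 0 UMIs in the Foxp3-detected pools against 496 in the others, which is at least 28.05-fold lower by a floor of 3 counts over all libraries. *Nkg7* (chromosome 7, 43437073 to 43438249) had 0 to 130 CPM (median 19.2) against 454 to 740.2 (median 551), a log2 fold change of -3.79 (SE 0.32, adjusted p = 6.2e-09 in edgeR). *Cd40lg* (chromosome X, 57212143 to 57224042) had 5 UMIs against 362 (-3.61, SE 0.43). *Cxcr6* had 0 to 86.2 CPM (median 41.0) against 382 to 561 (median 468; -3.52, SE 0.26), and *Itgb1*, the integrin beta 1 chain, 77.6 to 207 against 484 to 898 (-2.23, SE 0.16). *Tcf7*, which encodes the memory and stemness factor TCF-1, had 11 UMIs against 605 (-3.29, SE 0.35). *Pde7a*, *Gramd3*, *Themis* (a T cell receptor signal modulator) and *Lyst* (a lysosome trafficking gene) fell by between 2.27 and 2.52. Absence of overlap between the pools was a condition for naming these genes and is no result. Genes with few UMIs in the Foxp3-detected pools, such as *Xcl1*, *Cd40lg* and *Tcf7*, could pass the filter on low counts through the other pools alone.

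Of 11 cytotoxic genes 3 passed the filter on low counts, and these were lower, *Nkg7*, *Ctsw* (-1.66, SE 0.24) and *Ccl5* (-1.30, SE 0.20). *Nkg7* and *Ccl5* are also genes of the cytotoxic gate, so that the gate and gene results share UMIs. *Nkg7* had 28 UMIs in the Foxp3-detected pools against 2166, so that such a gene could pass the filter through the other pools alone. Of 6 Th1 genes tested 3 were lower, namely *Nkg7*, *Ccl5* and *Cxcr3* (-0.76, SE 0.17). Within the 12 receptor complex genes, *Thy1* (-1.27, SE 0.16) and the signal adaptor *Lat* (-0.76, SE 0.16) were lower and *Cd2* (0.74, SE 0.13) higher, while 9 did not pass the test. Memory and residency genes split, with *Itgae*, *S100a4*, *S100a6* and *Lgals1* higher and *Itgb1*, *Cxcr6* and *Crip1* lower out of 11 (*Lgals1* kept its call in 2 of 11 alternatives and *Crip1* in 6). Of 12 interferon genes, *Ifi27l2a* (0.63) and *Ly6e* (0.34) were higher and *Ly6a* (-0.70) lower, of which *Ly6e* was called in 5 of 11 alternatives, *Ly6a* in 7 and *Ifi27l2a* in 10. Of the other lists, 4 of 6 immediate early genes were higher (*Dusp1*, 1.67, SE 0.31; *Junb*, *Jund* and *Nfkbia* by 0.52 to 0.82, *Nfkbia* in 3 of 11 alternatives), 0 of 4 cytokine genes passed the test, and of 6 division genes *Mki67* did (1.14, adjusted p = 0.034 in edgeR). *Mki67* was higher in 2 of 6 libraries, and without UUO 2 or UUO 3 its log2 fold change was 0.85 or 0.52 (adjusted p = 0.28 and 0.56).

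Markers of other cell types also moved in this comparison. *Cd74* (1.11, SE 0.33) and the immunoglobulin gene *Ighm* (0.96, SE 0.14) were higher in Foxp3-detected pools, and *Kap* (-1.92, SE 0.36), *Gpx3* (-1.10) and *Slc34a1* (-1.56) of the proximal tubule lower. The 4 red blood cell genes did not pass the filter on low counts, but the Foxp3-detected pool of UUO 3, which holds its hemoglobin-rich cell, had 33240 CPM of them, against at most 37.1 in the pools of other CD4 T cells, and without the filter they were called higher. *Cd74* lost its call in 7 of 11 alternatives and *Slc34a1* in 4 of 10. In the stricter gate *Kap* was at -0.06, and the *Itgb1*, *Nkg7*, *Ctla4* and *Ikzf2* calls held there and in every other alternative. Of the 58 called genes that are named or listed here, 36 were called in every alternative computed for them.

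**Figure D4:**
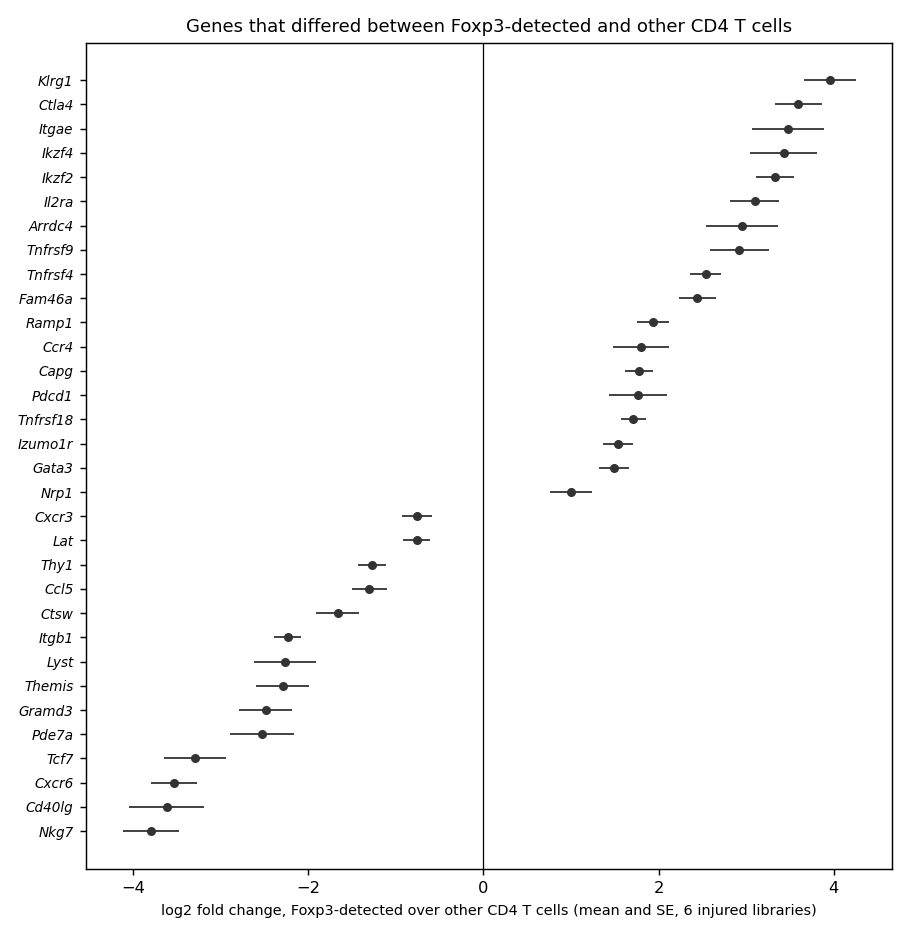
Log2 fold changes (points) with standard errors (bars) of 32 genes between the Foxp3-detected and the other CD4 T cells of 6 injured libraries, from edgeR with the library as a block. The upper 18 genes are positive and led by *Klrg1* and *Ctla4*, and the lower 14 are negative, down to *Nkg7*; *Xcl1*, with 0 UMIs in the Foxp3-detected pools, is not drawn.

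UUO and UIR CD4 T cells differed in few genes. Of 8687 genes tested in edgeR, 1 was higher in UUO (0.0115%) and 0 lower (0%), with 508 at an unadjusted p under 0.05. With the replicate number of the sample titles as a block, 32 were higher (0.368%) and 67 lower (0.771%), with 827 at an unadjusted p under 0.05. The titles of UIR 1 and UUO 1 carry no number, and they were taken as a pair. Other tools and filters gave between 1 and 222 calls, and leaving out 1 injured library between 0 and 6.

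The gene called in both fits was *Hist1h2ae* (chromosome 13, 23570517 to 23571220), a replication-dependent histone H2A gene. It had 12.6, 17.4 and 15.4 CPM in UIR 1 to 3 and 108, 114 and 76.2 in UUO 1 to 3. Absence of overlap was a condition for naming it. The log2 fold change was 2.64 (SE 0.25, adjusted p = 0.0061 in edgeR; 2.57 and 0.00025 with the block). Its UMIs were few, 6, 11 and 18 in UIR and 74, 99 and 49 in UUO. Of all 257, 209 (81.3%) came from 12 of the 37 cells in the division gate. The highest cell of each library held 3, 5 and 2 of its UMIs in UIR 1 to 3 and 37, 39 and 29 in UUO 1 to 3. The gene was detected in 4.08%, 4.17% and 7.11% of the cells in UIR and 8.28%, 8.16% and 4.0% in UUO, with overlap. Histone genes of this cluster are near-identical, so that the assignment of reads to 1 of them is uncertain. Without UIR 2 or UIR 3 the value was 2.73 or 2.62 and the adjusted p 0.071 or 0.057.

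The 9 division genes had a median log2 fold change of 1.59, against 0.001 for all genes, and summed to 633 to 1094 CPM in UIR and 1398 to 1747 in UUO, with 1412 in the 17 control cells. In edgeR with the main settings none passed the test without the block, and 5 did with it, namely *Mki67* (2.05), *Top2a* (1.63), *Birc5* (2.87), *Stmn1* (1.42) and *Pclaf* (1.83; adjusted p = 0.0017 to 0.03 in edgeR). Of 19 alternatives, the block among them, *Top2a* and *Birc5* were called in 7 each, *Mki67* and *Stmn1* in 4 and *Pclaf* in 3. *Mki67*, a nuclear protein of cycling cells, had 6.29, 42.7 and 28.2 CPM in UIR 1 to 3 and 64.3, 127 and 137 in UUO 1 to 3. Single cells held much of this, with 51 of 88 *Mki67* UMIs and 44 of 106 *Top2a* UMIs of UUO 3 in the highest cell for each gene, and 16 of 27 and 16 of 32 in UIR 2. In the 17 control cells all *Mki67* UMIs (2) and all *Top2a* UMIs (8) were in 1 cell of control 4 for each gene. The division gate held 1 of the 17. *Hist1h2ap*, another histone H2A gene, had 8.39, 75.8 and 34.1 against 133, 512 and 507 (3.32 with the block, adjusted p = 1.9e-05; 3.19 and 0.2 without it). The droplets hold these genes too, with 122 CPM of *Mki67*, and the part of free RNA and of cell depth in the difference was not tested.

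With the block, 3 immune genes were called higher in UUO that the fit without it did not call. These were *Ccr7* (2.67, adjusted p = 0.026 in edgeR), from 3, 2 and 3 cells in UIR and 6, 13 and 11 in UUO, *Slamf6* (0.82, adjusted p = 0.021), a receptor with 83.9, 83.7 and 96.5 CPM in UIR and 151, 141 and 194 in UUO, and *Tnfsf8*, which encodes the CD30 ligand (1.12, adjusted p = 0.014), with 39.9, 45.8 and 41.8 against 92.1, 86.0 and 109. *Xcl1* was lower in UUO (-1.48, adjusted p = 0.015), with 138, 139 and 181 CPM in UIR and 89.2, 53.9 and 34.2 in UUO. Absence of overlap between the models was a condition for choosing *Slamf6*, *Tnfsf8* and *Xcl1* by the size of their change. The libraries did not overlap for *Ccr7* either, with no share over all genes to set this against. Without the block the adjusted p of *Ccr7*, *Slamf6*, *Tnfsf8* and *Xcl1* in edgeR ranged from 0.17 to 0.29. Of 19 alternatives, the block among them, *Ccr7* and *Xcl1* were called in 5 each, *Tnfsf8* in 3 and *Slamf6* in 2.

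RNA of other cells moved in the same fit. With the block 5 of 8 proximal tubule genes were lower in UUO, among them *Kap* (-3.47, adjusted p = 0.0006 in edgeR), and so were *Umod* (-1.51, adjusted p = 0.01 in edgeR) of the loop of Henle, *Acta2* (-2.90, adjusted p = 0.031) of smooth muscle and stroma, and *Spp1* (-0.93), whose level in the droplets was 2857 CPM. All 4 red blood cell genes were higher, and 3666 of the 3707 *Hbb-bs* UMIs of the injured libraries came from 1 cell of UUO 3. The other lists had no call without the block, among them the 15 Treg genes tested (median 0.004), 10 Th1 (0.013), 5 Th2 (-0.29), 9 cytotoxic (0.046) and 12 interferon genes (-0.032). *Foxp3* had a log2 fold change of -0.09 (SE 0.38, adjusted p = 1).

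**Figure D5:**
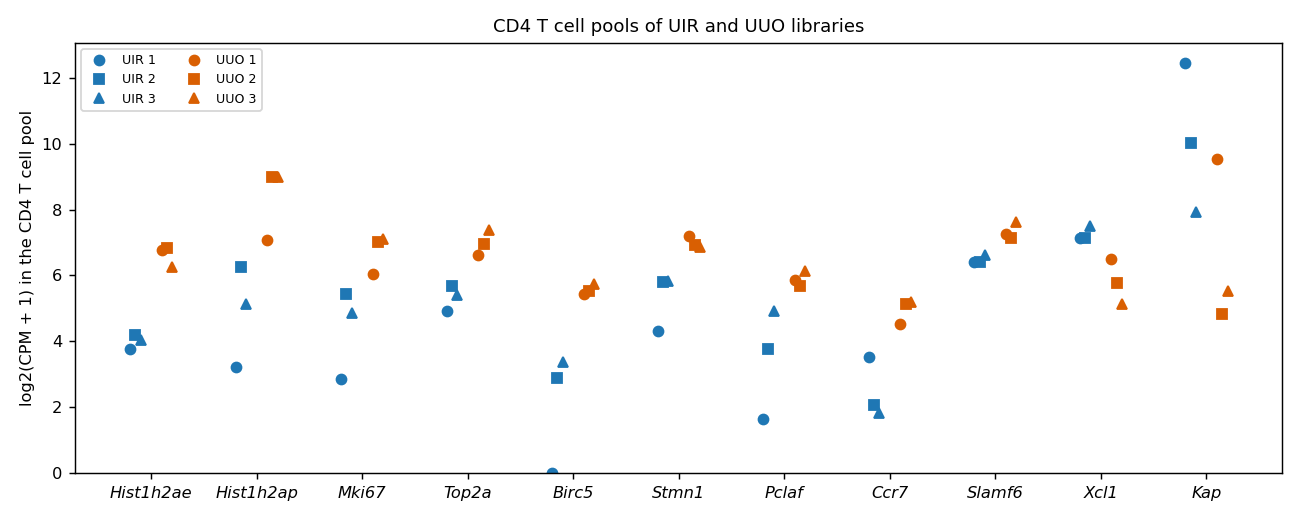
Levels of 11 genes in the pooled CD4 T cells of each UIR (blue) and UUO (orange) library, as log2(CPM + 1). For the histone and division genes from *Hist1h2ae* to *Pclaf*, and for *Ccr7* and *Slamf6*, every UUO point lies above every UIR point. *Xcl1* runs the other way, and *Kap* overlaps. Absence of overlap was a condition for naming *Hist1h2ae*, *Hist1h2ap*, *Top2a*, *Slamf6* and *Xcl1* by size and is no result. The share of all genes tested without overlap is not given.

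Gene levels of control and injured CD4 T cells could not be tested in the main design, since only control 4 had the 5 cells set as the minimum for a pool. The alternatives with fewer cells per pool are given as such, and in both most genes shifted together, with a median log2 fold change of 0.46 to 0.63. With pools of at least 1 cell, 10 of 6370 genes were higher (0.157%) and 3 lower (0.0471%) in UIR, and 7 higher (0.11%) and 0 lower (0%) in UUO. With the control libraries summed by their 3 label names, 0 of 7237 genes were higher (0%) or lower (0%) in UIR, and 1 was higher (0.0138%) and 0 lower (0%) in UUO; the unadjusted p was under 0.05 for 787 and 834 genes.

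*Ifi27l2a*, *H2afz*, *Tmem176a* and *Apoe* were called higher in both models under the first alternative, against the same 17 control cells. Under the second, only *Tmem176a* was called, and only in UUO. *Ifi27l2a*, an interferon-induced gene, had 441 CPM (interval 315 to 601) in the control cells and 839 to 1528 in the 6 injured libraries, with 233 in the droplets. *H2afz*, which encodes the histone variant H2A.Z, had 541 (400.0 to 715) against 900 to 1474, with 742 in control 4 alone. *Tmem176a* had no control UMI, which allows 40.7 CPM, against 122 to 216, but its level in the droplets of the injured libraries was 423. The lower genes in UIR included *Satb1*, which ranged from 0 to 503 CPM between the control libraries. They also included the histone gene *Hist1h1b*, of which all 32 control UMIs were in control 4. *Apoe*, and *Cd74*, which was called higher in UUO, are macrophage and antigen presentation genes with 3339 and 3821 CPM in the droplets, and their part in these calls was not tested.

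CD4 and CD8 T cells of the injured libraries are set side by side as a description, since detection of *Cd4* and of the CD8 genes chose them. *Cd40lg* stood at 34.8 to 103 CPM (median 90.4) in CD4 T cells and at 0.939 to 10.2 (median 4.90) in CD8 T cells, a ratio of means of 14.6. *Tnfrsf4* (ratio 13.6), *Foxp3* (9.57), *Maf* (5.08), *Ctla4* (3.93), *Icos* (2.63), *Cd5* (2.61) and *Il7r* (2.44) were likewise higher in CD4 T cells in 6 of 6 libraries. Conversely *Ccl5* had a mean of 1240 ± 155 CPM in CD4 and 8761 ± 2369 in CD8 T cells (SD, n = 6), and *Nkg7* 486 ± 67.0 and 2308 ± 593. *Gzmk*, *Klrk1*, *Eomes* and *Cxcr6* were also lower in CD4 T cells in 6 of 6 libraries, with ratios of 0.143, 0.109, 0.0639 and 0.57.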

How the data were processed

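The authors deposited raw UMI counts of every gene in every barcode of the 11 libraries, empty droplets included (10x Genomics 3' chemistry, Cell Ranger 3.1.0 and mm10 per the labels; the methods name a later version). No correction for free RNA or doublets had been applied to them. Total UMIs per library ranged from 49503312 to 117043590, and kept barcodes from 2010 to 8072. Identifiers of 28339 of 28692 genes were found in GENCODE M21.

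UMIs were summed over the CD4 T cells of each library with 5 or more of them and tested with edgeR 4.0.16 (R 4.3.3; filterByExpr, TMM, quasi-likelihood test, all groups in 1 model), at an adjusted p under 0.05. DESeq2 1.42.0 was an alternative. Shares were compared by two-sided exact permutation tests over libraries (scipy 1.17.1). Fits were also run on simulated counts with the same spread for all genes. Such counts do not hold the single cells rich in 1 gene seen here, so no conclusion is drawn from them. A library is taken as 1 mouse from the study's numbers of mice, and the labels name no batch. Same-numbered UIR and UUO libraries deviated together from their group means (r = 0.116 and 0.112), and so did UIR 1 and UUO 1 (r = 0.392). The titles of UIR 1 and UUO 1 carry no number, and they were taken as a pair. Each of these r was above 0.1, so values with the replicate number as a block stand beside the main ones. Among unlike libraries, UIR 3 and UUO 2 had r = 0.299 and UIR 2 and UUO 3 had 0.0887, and the others were negative.

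Members, lists and alternatives were chosen with earlier results of these data known. Genes named are list members and, per comparison, up to 10 in each direction with the largest changes among called genes that reached 50 CPM in the higher group, with no overlap of libraries and 2 times the level in droplets of 10 to 100 UMIs. *H2afz*, the cytokine counts and the single cells rich in 1 gene were chosen after their values were seen. Some genes, and the gates that used them, are not reported here.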

Additional observations from a re-analysis of the deposited data

Results flagged for a closer look

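The pooled CD4 T cells of UUO and UIR kidneys differed in *Hist1h2ae*, with a log2 fold change of 2.64, a difference between the models under the same comparison that passed the test of the difference itself. Single cells held 37 of 74, 39 of 99 and 29 of 49 of its UMIs in UUO 1 to 3. The call was lost without UIR 2 or without UIR 3.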

How the results depend on the processing

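The differences of both CD4 T cell shares (of all and of *Ptprc*-detected barcodes) from control kept their sign in every alternative. With 1 library left out no p under 0.0571 is possible; the differences of shares of all barcodes then ran from 1.998 to 2.96 points in UIR and 2.28 to 2.57 in UUO, and of *Ptprc*-detected barcodes from 4.85 to 6.85 and 3.31 to 4.44. For UUO the latter was 3.44 with a mitochondrial limit of 15% and 2.32 with the stricter gate, with an exact permutation p of 0.107 for each. UUO minus UIR turned sign for all barcodes without UIR 3 (0.456; range -0.504 to 0.456) and with a limit of 50% (0.43), for CD4 of CD4 plus CD8 without UUO 3 (0.718; range -9.62 to 0.718), and for the Foxp3 share after thinning (-6.53). Alternatives on the gates, added after seeing the data, turned the sign of the Th1-type difference (12.1 after thinning; 2.4, 1.63 and 3.24 without UIR 1, UIR 3 or UUO 3; range without 1 library -7.12 to 3.24), the follicular-type difference (-1.54 after thinning) and the cytotoxic difference (0.341 without UUO 3; range -8.6 to 0.341). UUO versus UIR gave 10 calls with DESeq2, 222 without a filter, 62 with pools of 1 cell, 99 with the replicate block, 16 with the stricter gate, 16 at 15% mitochondrial UMIs, 24 with controls summed by label, and 0 to 6 without 1 library (0 without UIR 2 or UIR 3, 6 without UIR 1 or UUO 1). The log2 fold change of *Foxp3* was 0.054 without high doublet scores, 0.17 without UIR 2 and 0.29 without UUO 2 (range without 1 library -0.42 to 0.29). Between Foxp3-detected and other cells there were 172 calls with DESeq2, 560 without a filter, 212 with no replicate block, 223 with the stricter gate and 235 to 269 without 1 library. The cause was not tested. The 17 control cells limit every comparison with control.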

Other observations

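*H2afz*, which encodes the histone variant H2A.Z and was chosen after its values were seen, was also higher in Foxp3-detected CD4 T cells, with 3303 ± 873 CPM against 754 ± 269 (SD, n = 6 libraries; log2 fold change 2.13, SE 0.17, adjusted p = 3.6e-09 in edgeR), in 6 of 6 libraries. The lowest Foxp3-detected pool had 2516 CPM and the highest other pool 1081, and the droplets of these libraries had a mean of 699.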
